A study of Mus musculus with 12 samples.

Results

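A set of 10 genes of the growth hormone and insulin-like growth factor (IGF) axis was followed in the liver of female mice that carried or lacked estrogen receptor alpha. They were Ghr, Stat5a, Stat5b, Socs2, Cish, Igf1, Igfals, Igfbp1, Igfbp2 and Igfbp3, taken by symbol with every probe set that the platform annotation gives to each. These 10 genes were 10 of 18194 on the array, and their 23 probe sets were 23 of 45101. The mice were adult females of a B6.129 background, either wild type (WT, Esr1+/+) or αERKO (Esr1-/-). They ate NIH-31, here called normal diet, or a diet with 60 kcal% fat, here called high-fat diet, and the feeding lasted 2 weeks. Total liver RNA was hybridised to 1 array per sample, with 3 samples in each of the 4 groups: WT normal, WT high-fat, αERKO normal and αERKO high-fat. The genotype is that of the whole animal, and the labels name no Cre or tissue-restricted driver, so the receptor was not removed from liver alone. The labels do not say whether the samples of a group came from separate mice, so the p-values describe the spread between samples, and that spread may be technical.

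Growth hormone is released by the pituitary in pulses whose pattern differs between the sexes, and it acts on hepatocytes through its receptor, the product of Ghr. The receptor activates the kinase JAK2, which phosphorylates STAT5A and STAT5B, and these enter the nucleus and switch on target genes. Socs2 and Cish are such targets and encode inhibitors that act back on the receptor, while Igf1 encodes the growth factor that the liver sends into blood. Most circulating IGF1 travels in a complex with IGFBP3 and the acid-labile subunit, the product of Igfals. IGFBP1 and IGFBP2 are smaller carriers, and Igfbp1 transcription is held down by insulin.

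Each value is a MAS5 signal, a linear brightness that summarises the probes of a probe set on 1 array. Where a gene has several probe sets, the brightest stood for it. Differences are on the log2(signal + 16) scale with the standard error of the limma fit, and genes with an adjusted p under 0.05 over the 12264 genes kept were called. The brightest probe set of each of the 10 genes was above its array's median on all 12 arrays, and of the 23 probe sets 22 passed the filter. The exception was the Socs2 probe set 1441476_at, at signals of 11.4 to 62.7.

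On the checks that touch the whole series, Esr1 signals were 1963 to 3930 on the 6 WT arrays and 586 to 885 on the 6 αERKO arrays, without overlap. Hepatocyte markers were high on every array, with a mean log2 value over 8 genes of 15.4 to 16.0. The summed signal of these markers was 513617 to 532576 in WT normal, above the 424129 to 475979 of WT high-fat, the 390971 to 456682 of αERKO normal and the 366847 to 444051 of αERKO high-fat. Some arrays also held transcripts of other tissues. Over 7 pancreatic acinar genes the mean log2 value was 13.8 for replicate 2 of WT normal and 13.5 for replicate 1 of αERKO normal. Replicates 3 and 2 of WT high-fat had 12.5 and 9.90, against 5.09 to 6.13 on the other 8 arrays. Over 12 skeletal muscle genes it was 10.4 in αERKO normal replicate 1 and 8.51 in αERKO high-fat replicate 2.

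Igfbp2 was the gene of the axis that the fit called, and it was low in a single group, αERKO on high-fat diet. Its signals were 14751, 9157 and 13086 in WT normal and 13332, 14837 and 13894 in WT high-fat. In αERKO normal they were 7817, 11915 and 11131, and in αERKO high-fat they were 4110, 4883 and 4498. All 3 arrays of the last group lay below the other 9. The group means were 12331 ± 2872, 14021 ± 760, 10287 ± 2175 and 4497 ± 386 (SD, n = 3 each). The neighbours among the 3 higher groups did not differ beyond their spread. Every WT high-fat array lay above every αERKO normal array, but that pair differs in both genotype and diet and was not tested. In bulk tissue, fewer cells of a type and less RNA per cell cannot be told apart.

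On high-fat diet Igfbp2 was 3.11-fold lower in αERKO than in WT, a log2 difference of -1.64 ± 0.17 with a 95% interval of -2.01 to -1.27 (adjusted p = 0.000117). It was the single one of the 10 genes called in that comparison, in which 1.98% of all genes were called. Within αERKO, Igfbp2 was 2.25-fold lower on high-fat than on normal diet, a log2 difference of -1.17 ± 0.17 with a 95% interval of -1.54 to -0.80 (adjusted p = 0.00870). It was again 1 of 10 called, against 0.481% of all genes. Leaving out αERKO normal replicate 3 took this diet difference just past the threshold (-1.10, adjusted p = 0.0501), and a fit without the intensity trend gave an adjusted p of 0.0728.

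In the remaining comparisons the Igfbp2 difference did not pass the test. It was -0.26 ± 0.17 between genotypes on normal diet (adjusted p = 0.592) and 0.21 ± 0.17 between diets in WT (adjusted p = 0.798). The latter was 0.01 without WT normal replicate 2, the lowest WT array, which held pancreatic transcripts, and -0.06 without all 4 such arrays. The genotype difference on normal diet was -0.46 without WT normal replicate 2 (limma adjusted p = 0.264). It was -0.07 without αERKO normal replicate 1 (limma adjusted p = 0.929), the lowest array of its group, which held pancreatic and muscle transcripts. The difference between the diet responses of the genotypes was -1.38 ± 0.24. Its unadjusted p was 6.01e-05 and its adjusted p was 0.203, and 0% of all genes were called for this interaction with limma, although 728 (5.94%) had an unadjusted p under 0.05. Taking the brightest probe sets, Igfbp2 alone of the 10 genes had an unadjusted interaction p under 0.05. Among the 22 probe sets the dimmer Igfbp3 probe set 1458268_s_at had one too, with an interaction of 0.64 ± 0.24 (unadjusted p = 0.0206, adjusted p = 0.842). In a fit that included pancreatic and muscle scores the interaction of Igfbp2 was -1.57 ± 0.19 (adjusted p = 0.0213), the single one of 25 alternatives in which it was called.

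Sums of cell type markers were also compared between the genotypes on high-fat diet, where some separated the groups and others overlapped. The summed signal of 8 hepatocyte markers was 424129 to 475979 in WT high-fat and 366847 to 444051 in αERKO high-fat, so the ranges overlapped, and the part of these markers in the Igfbp2 value was not tested. The sum of 10 macrophage and Kupffer markers did not overlap, at 23005 to 30988 in WT high-fat and 18381 to 21610 in αERKO high-fat, and its part was not tested either. With normal diet it was 23962 to 25753 in WT and 15994 to 23822 in αERKO. The sum of 7 acinar markers was 334 to 43048 in WT high-fat and 175 to 308 in αERKO high-fat. Without the 4 arrays that held pancreatic transcripts, the Igfbp2 difference on high-fat diet was -1.57 ± 0.15 (adjusted p = 0.000768), with WT high-fat reduced to 1 array that is assumed to vary like the others. With both tissue scores as covariates it was -1.86 ± 0.15 (adjusted p = 3.53e-05).

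The letters just upstream of Igfbp2 are shown because it is the gene called. The 250 bases before its first annotated start in RefSeq (GRCm38.p6, chr1:72824230-72824479, + strand) are given 5′ to 3′, with capitals marking the GC box GGGCGG, a letter pattern read by SP1-type factors.
Igfbp2: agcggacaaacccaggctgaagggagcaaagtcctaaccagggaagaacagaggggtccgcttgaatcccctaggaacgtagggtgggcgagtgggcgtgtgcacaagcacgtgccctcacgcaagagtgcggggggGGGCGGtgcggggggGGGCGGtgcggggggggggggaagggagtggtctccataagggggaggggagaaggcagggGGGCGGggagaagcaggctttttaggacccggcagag
The window held 3 matches, where 32.7% of 32851 such windows of all genes held at least 1 on either strand and 16.7% held 2 or more. The window of a second annotated Igfbp2 start held 0. The window shown had a GC content of 67.2%, against a median of 52.4% over all windows. It held no match to AGGTCA, the half-site of estrogen receptors and several other nuclear receptors, nor to TTCNNNGAA, the pattern bound by STAT5. A match is a description of letters, and the arrays do not show which start the liver uses.

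**Figure D1:**
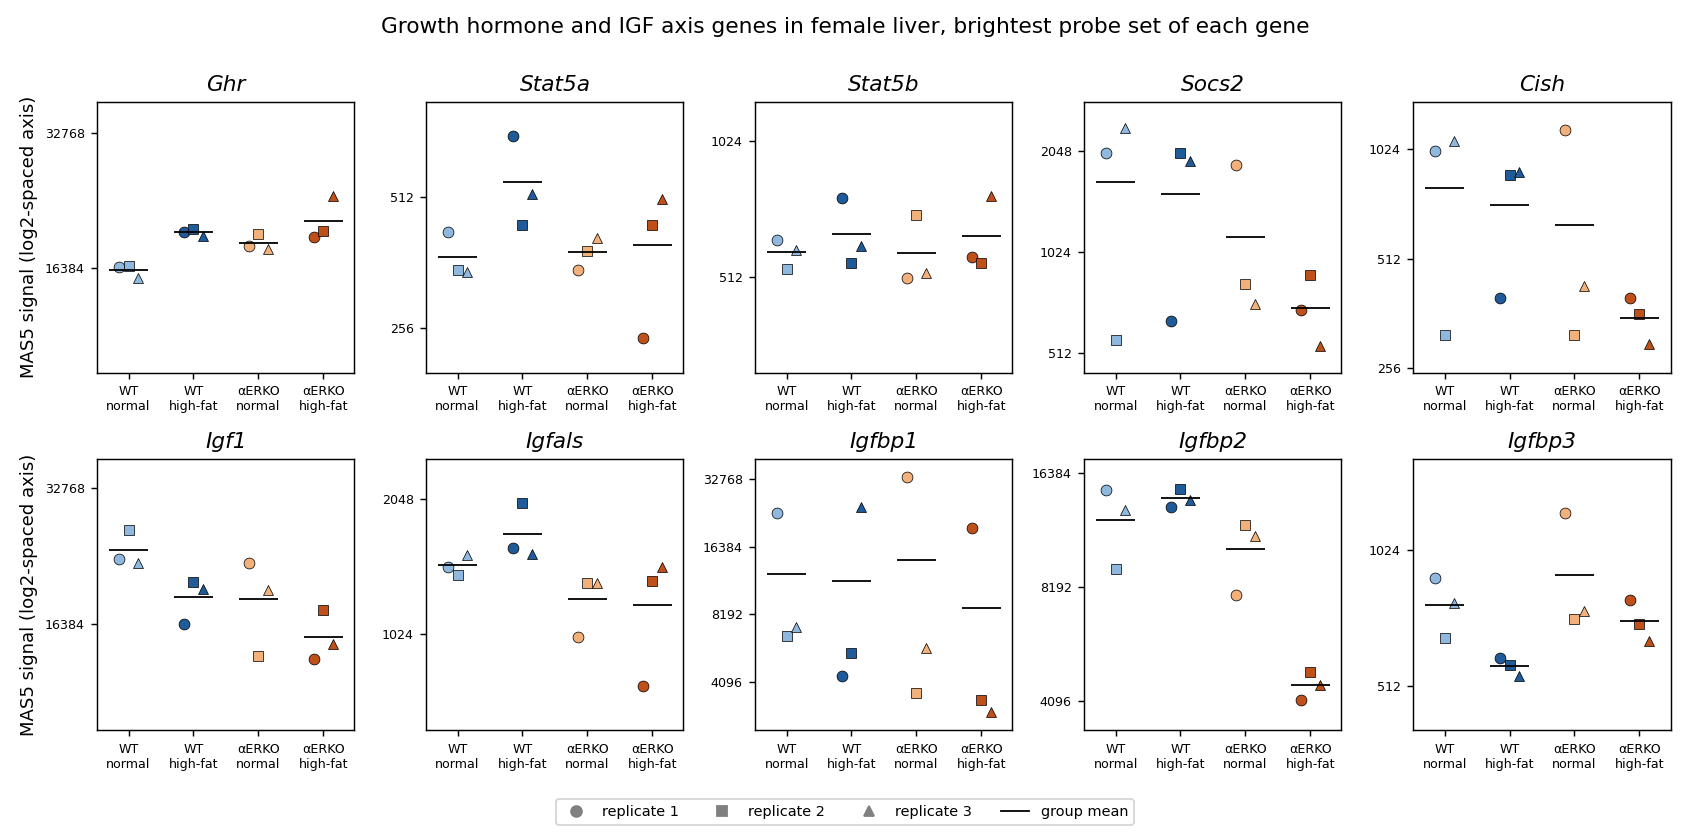
MAS5 signal on a log2-spaced axis for the brightest probe set of each of the 10 genes, 1 point per array, with marker shape giving the replicate number and a line at the mean of the 3 signals of each group. The Igfbp2 signals of αERKO high-fat lie at 4110 to 4883, below the other 9 arrays, while Socs2, Cish and Igfbp1 split within groups.

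Genes whose pattern over the 12 arrays was most like that of Igfbp2 were Mrpl47, a protein of the mitochondrial ribosome (Pearson r = 0.93, Spearman rho = 0.80), Nr1i2, the pregnane X receptor (r = 0.91, rho = 0.93), and Marchf6, a ubiquitin ligase of the endoplasmic reticulum (r = 0.91, rho = 0.78). These coefficients are over 12 arrays that share groups and scaling, and they were picked as the highest of all genes.

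Upstream in the axis, the receptor gene Ghr had slightly higher signals in every group than in WT normal. The brightest probe set, 1417962_s_at, read 16508, 16543 and 15583 in WT normal and 19676, 20046 and 19326 in WT high-fat. In αERKO normal it read 18364, 19516 and 18056, and αERKO high-fat gave 19216, 19776 and 23701. All 9 arrays outside WT normal exceeded its 3 arrays. The difference was 0.28 ± 0.09 between diets in WT (unadjusted p = 0.00616, adjusted p = 0.399) and 0.20 ± 0.09 between genotypes on normal diet (adjusted p = 0.372), so neither passed. Both differences use the same WT normal arrays.

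The other Ghr probe sets pointed the same way. All 3 were positive in each of the 4 comparisons between groups, and none was called. The dimmer 1451871_a_at, with 768, 963 and 629 in WT normal, 862, 889 and 1034 in WT high-fat, 1128, 1029 and 908 in αERKO normal and 1327, 1393 and 1255 in αERKO high-fat, had the clearest genotype difference on high-fat diet. That difference was 0.51 ± 0.16 (adjusted p = 0.136 over the 21558 probe sets kept), and with array quality weights it was 0.55 ± 0.13 (adjusted p = 0.0234). The third probe set, 1451501_a_at, had differences of 0.07 to 0.15 in the same 4 comparisons.

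Stat5a and Stat5b, neighbouring genes on chromosome 11 that encode the transcription factors of the pathway, did not pass in any comparison. Stat5a signals were 424, 348 and 344 in WT normal, 706, 440 and 518 in WT high-fat, 348, 384 and 412 in αERKO normal, and 242, 441 and 506 in αERKO high-fat. The WT high-fat arrays were above the WT normal arrays, while αERKO high-fat spread over more than the range of αERKO normal. The Stat5a difference was 0.54 ± 0.24 between diets in WT (adjusted p = 0.574) and -0.50 ± 0.24 between genotypes on high-fat diet (adjusted p = 0.343). Its other probe set, 1450259_a_at at signals of 44.7 to 128, gave -0.01 and 0.04 for these differences.

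Stat5b varied little between groups. Its signals were 617, 534 and 588 in WT normal, 764, 548 and 600 in WT high-fat, 508, 703 and 522 in αERKO normal, and 566, 551 and 774 in αERKO high-fat. The groups overlapped throughout. The genotype differences were -0.02 ± 0.18 on each diet, with 95% intervals of -0.40 to 0.37, and their sign changed when arrays were centred on their medians or quantile normalized. A dimmer probe set, 1422102_a_at at 80.2 to 269, gave -0.23 ± 0.33 and -0.45 ± 0.33.

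Socs2 and Cish, the feedback inhibitors that STAT5 induces, split the arrays in the same way and not by group. Socs2 signals were 2021, 559 and 2393 in WT normal, 637, 2021 and 1909 in WT high-fat, 1863, 824 and 718 in αERKO normal, and 687, 875 and 539 in αERKO high-fat. Cish signals were 1012, 315 and 1078 in WT normal, 398, 869 and 886 in WT high-fat, 1154, 317 and 430 in αERKO normal, and 398, 360 and 299 in αERKO high-fat. The same 5 arrays were high for both genes: WT normal replicates 1 and 3, WT high-fat replicates 2 and 3, and αERKO normal replicate 1. For Socs2 the low arrays reached 875 and the high arrays began at 1863, and for Cish the low arrays reached 430 and the high arrays began at 869. None of the 3 αERKO high-fat arrays was among the high ones, so the split fell 2, 2, 1 and 0 across the groups. Since the arrays formed separate clusters, no correlation is given.

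This spread within groups set the errors of both genes. On high-fat diet the genotype difference was -0.96 ± 0.53 for Socs2 (95% interval -2.09 to 0.17, adjusted p = 0.421) and -0.92 ± 0.48 for Cish (95% interval -1.96 to 0.12, adjusted p = 0.398). On normal diet it was -0.43 ± 0.53 (adjusted p = 0.784) and -0.37 ± 0.48 (adjusted p = 0.802). Of the 4 arrays with pancreatic transcripts, 3 were among the high arrays and 1, WT normal replicate 2, among the low. Without these 4 arrays the normal-diet difference was -1.50 ± 0.22 for Socs2 and -1.46 ± 0.22 for Cish, both with an adjusted p of 0.00856 in limma, from 2 arrays a group. The high-fat difference without them was 0.11 for Socs2 and -0.18 for Cish, with WT high-fat left with replicate 1 alone, a low array. The values of both genes therefore turn on which arrays are used.

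The second bright Socs2 probe set, 1418507_s_at, had the same 5 arrays high. It read 1605, 440 and 1065 in WT normal, 512, 1479 and 1663 in WT high-fat, 1846, 730 and 563 in αERKO normal, and 578, 737 and 648 in αERKO high-fat. All 5 Socs2 probe sets that passed the filter were negative for genotype on high-fat diet and for diet in αERKO, and none was called. The largest of these was -1.59 ± 0.52 for the dim 1438470_at (adjusted p = 0.163), which read 133, 87.2 and 115 in WT normal, 81.8, 157 and 96.0 in WT high-fat, 61.2, 67.9 and 88.7 in αERKO normal, and 20.0, 87.7 and 2.71 in αERKO high-fat. Without αERKO high-fat replicate 2 that probe set gave -2.25 (adjusted p = 0.0408). The Cish window upstream of its start held no match to TTCNNNGAA, and Socs2 had no window.

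**Figure D2:**
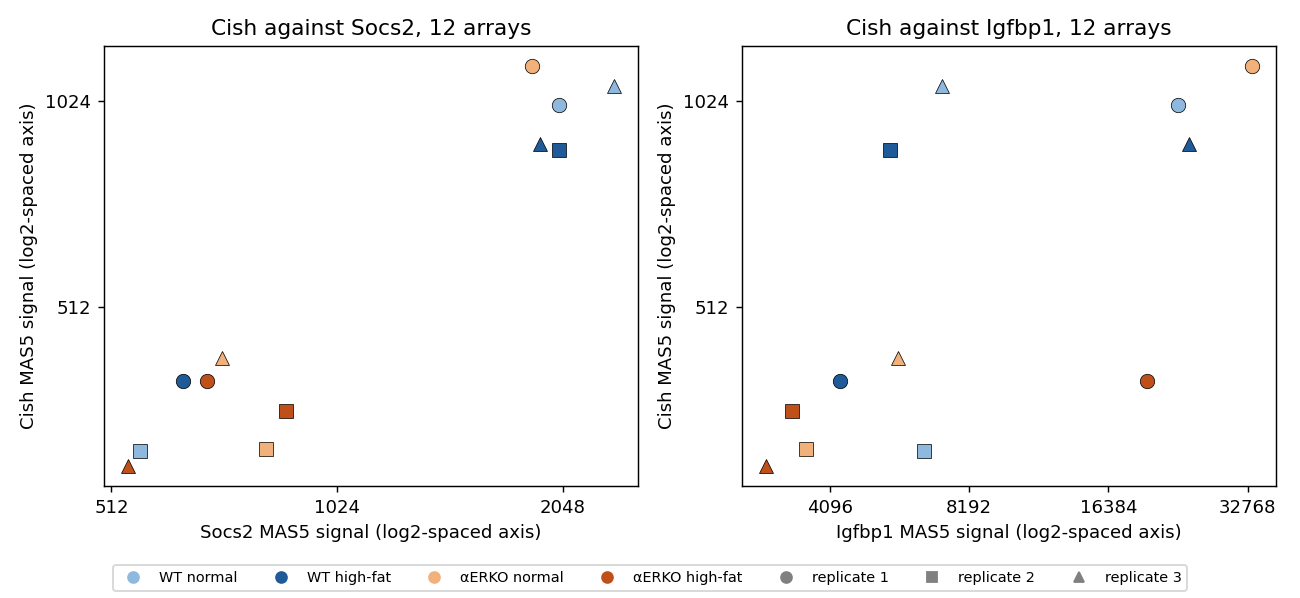
Cish signal against Socs2 signal (left) and against Igfbp1 signal (right) on log2-spaced axes, 1 point per array, coloured by group and shaped by replicate number. On the left the arrays form 2 clusters of 5 and 7. On the right the 4 arrays with high Igfbp1 are 1 from each group, and 3 of them are high for Cish.

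Igf1, the growth factor itself, had its highest signals in WT normal. The brightest probe set, 1437401_at, read 22860, 26492 and 22358 in WT normal and 16376, 20300 and 19583 in WT high-fat. It read 22383, 13906 and 19488 in αERKO normal and 13660, 17573 and 14796 in αERKO high-fat. All WT normal arrays exceeded all WT high-fat arrays, whereas αERKO normal replicate 1 reached the WT normal range. The difference was -0.39 ± 0.15 between genotypes with normal diet (adjusted p = 0.332), -0.29 ± 0.15 with high-fat diet (adjusted p = 0.403), -0.35 ± 0.15 between diets in WT (adjusted p = 0.555) and -0.26 ± 0.15 between diets in αERKO (adjusted p = 0.619). None passed, and the comparisons share arrays. The sum of the hepatocyte markers was also highest in WT normal. The part of those markers in the Igf1 values was not tested.

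The 4 Igf1 probe sets were negative together for genotype on normal diet, from -0.39 to -0.15, for genotype on high-fat diet, from -0.37 to -0.18, and for diet in αERKO, from -0.43 to -0.03. In WT the diet difference was negative in 3 of 4. The second brightest, 1434413_at, read 21273, 18610 and 18603 in WT normal, 14966, 17832 and 17118 in WT high-fat, 21094, 13375 and 18198 in αERKO normal, and 12762, 14575 and 11371 in αERKO high-fat. The αERKO high-fat arrays lay below both WT groups. No Igf1 probe set was called.

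Igfals, which encodes the acid-labile subunit that stabilises IGF1 in blood, read 1442, 1388 and 1538 in WT normal. In WT high-fat it read 1589, 1997 and 1544. The values were 1010, 1332 and 1326 in αERKO normal and 785, 1341 and 1442 in αERKO high-fat. On each diet every αERKO array was below every WT array, by a narrow margin, and replicate 1 was the lowest of each αERKO group. The difference was -0.26 ± 0.20 with normal diet (adjusted p = 0.643) and -0.56 ± 0.20 with high-fat diet (95% interval -0.99 to -0.13, unadjusted p = 0.0148, adjusted p = 0.190), so it did not pass.

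Among the windows of 9 members, those of Igfals alone held the STAT5 pattern, and they are shown for that reason. The pattern TTCNNNGAA, which reads the same on both strands, was in 7.02% of all windows. The first sequence is the 250 bases before the first annotated start (GRCm38.p6, chr17:24877594-24877843, + strand), and the second is a stretch of 29 bases from the window of another annotated start (chr17:24878163-24878191, + strand), with the pattern in capitals.
Igfals: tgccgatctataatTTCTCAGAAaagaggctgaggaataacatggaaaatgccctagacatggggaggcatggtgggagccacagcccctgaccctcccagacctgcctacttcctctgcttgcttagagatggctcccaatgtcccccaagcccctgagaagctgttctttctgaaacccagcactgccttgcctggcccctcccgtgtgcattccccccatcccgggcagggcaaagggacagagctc
Igfals, second start: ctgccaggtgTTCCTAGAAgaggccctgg
AGGTCA occurred in 5 of the 15 member windows, those being windows of Igf1, Stat5a, Stat5b and Igfals, and in 14.0% of all windows.

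Igfbp1, the carrier whose gene is held down by insulin, had the widest range of the 10 genes. Its signals were 23222, 6532 and 7159 in WT normal, 4320, 5516 and 24487 in WT high-fat, 33463, 3633 and 5749 in αERKO normal, and 19895, 3387 and 2982 in αERKO high-fat. The highest array was 11.2-fold above the lowest. In each group 1 array was high, at 19895 to 33463 over the 4 groups, and the other 8 arrays lay at 2982 to 7159. Of these 4 arrays, 3 were also high for Cish, and 6 arrays were low for both genes. The standard error of each comparison between groups was 0.88, so that genotype differences of -0.21 with normal diet and -0.51 with high-fat diet, with 95% intervals of -2.11 to 1.69 and -2.41 to 1.39, were not resolved by these arrays.

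The Igfbp1 window is shown for the core letters of FOXO factors, which insulin inactivates. It is the 250 bases before the start (GRCm38.p6, chr11:7197537-7197786, + strand), with capitals marking AAACA, which is TGTTT on the other strand.
Igfbp1: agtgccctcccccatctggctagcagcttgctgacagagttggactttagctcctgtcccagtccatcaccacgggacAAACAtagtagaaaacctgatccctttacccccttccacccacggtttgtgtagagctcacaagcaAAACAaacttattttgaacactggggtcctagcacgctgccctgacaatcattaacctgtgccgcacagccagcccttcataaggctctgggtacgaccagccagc
It held 2 matches, where 46.4% of all windows held at least 1 and 18.3% held 2 or more. So short a pattern is common, and 8 of the 15 member windows had it.

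Igfbp3, the main carrier of IGF1 in blood and the gene next to Igfbp1 on chromosome 11, was lowest in WT high-fat. Probe set 1423062_at read 887, 652 and 783 in WT normal, 591, 571 and 537 in WT high-fat, 1239, 721 and 752 in αERKO normal, and 795, 703 and 644 in αERKO high-fat. The WT high-fat arrays were below all others. The difference was -0.43 ± 0.19 between diets in WT (adjusted p = 0.561) and 0.32 ± 0.19 between genotypes on high-fat diet (adjusted p = 0.464). The other probe set, 1458268_s_at, gave -0.57 ± 0.17 (adjusted p = 0.413) and 0.44 for the same differences, and its WT high-fat arrays lay at 400 to 545, below all others but 1 αERKO normal array at 515. For genotype on normal diet the 2 probe sets differed in sign, at 0.19 for 1423062_at and -0.19 for 1458268_s_at. They also did for diet in αERKO, at -0.29 and 0.07. Neither probe set was called. The summed signal of 9 sinusoidal endothelial markers, cells that also make IGFBP3 in liver, was 12453 to 14631 in WT high-fat and 10399 to 12736 in αERKO high-fat, and its part in the Igfbp3 values was not tested.

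**Figure D3:**
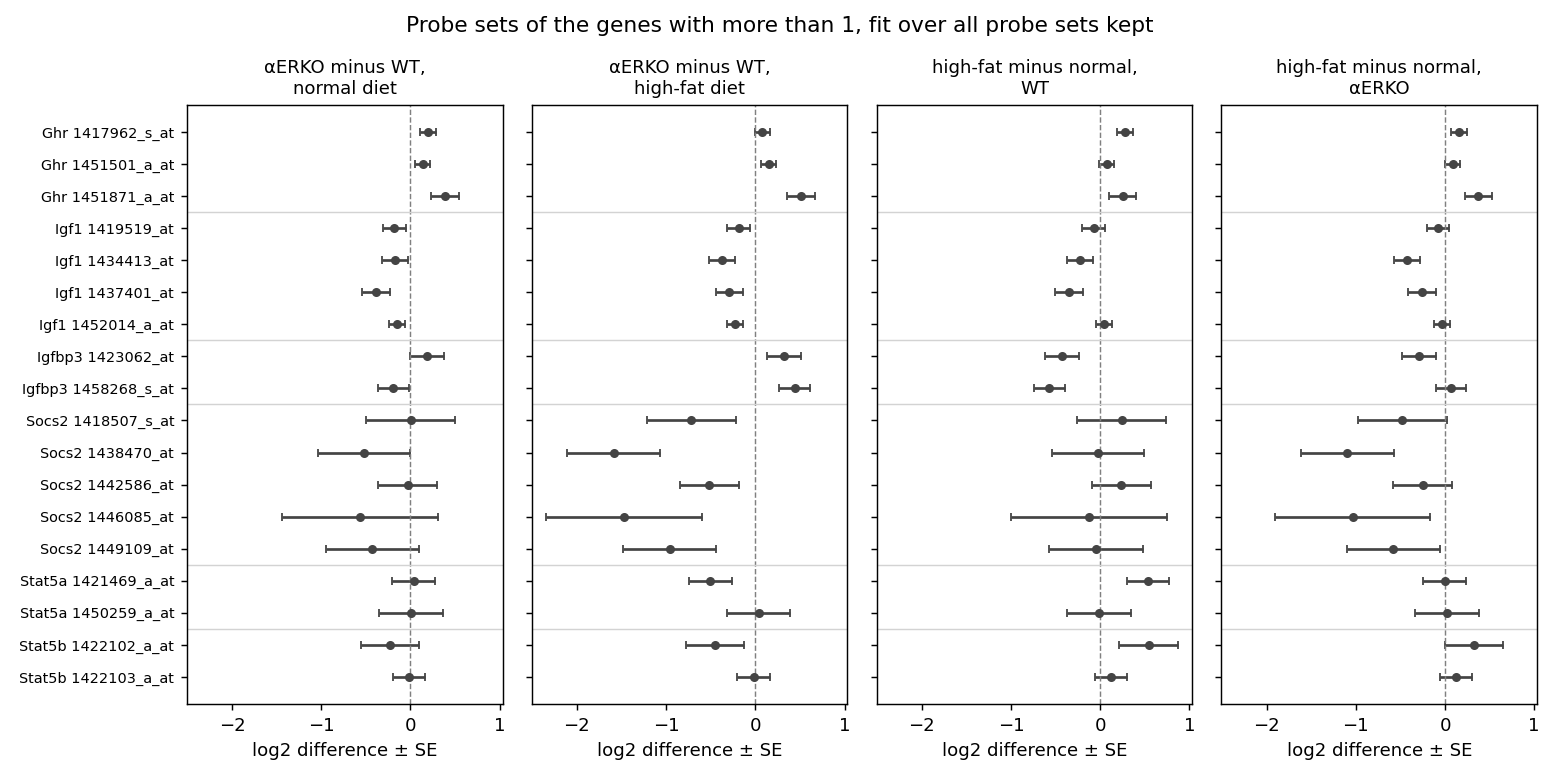
Fitted log2 differences with their standard errors for each probe set kept of the 6 genes with more than 1, in the 4 comparisons between groups. The 3 Ghr probe sets lie above 0 in each panel, and the 4 Igf1 and 5 Socs2 probe sets lie below 0 for genotype on high-fat diet.

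Set out by comparison, genotype on normal diet called 0 of the 10 genes with limma, where 1.22% of all genes were called, and 2 had an unadjusted p under 0.05, against 12.1% of all genes. The median log2 difference of the 10 was -0.23, with 3 positive and 7 negative, against -0.05 over all genes. Centring arrays on their medians made it -0.09, with 4 positive and 6 negative, against 0.09 over all genes. Quantile normalization made it -0.25, with 4 positive and 6 negative, against -0.01 over all genes. On high-fat diet the median was -0.51 against -0.03, with 2 positive and 8 negative, and 2 genes had an unadjusted p under 0.05, against 15.2% of all genes. These members' medians rest partly on Socs2, Cish and Igfbp1, whose spread within groups was large. The genotype comparisons on the 2 diets share no arrays.

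The diet comparison in WT called 0 of 10 with limma, where 0.0734% of all genes were called, and 4 genes had an unadjusted p under 0.05, against 8.28%. These were Ghr and Stat5a, positive, and Igf1 and Igfbp3, negative, and their adjusted p was 0.399 to 0.574. The median of the 10 was 0.04, with 5 of each sign. In αERKO the median diet difference was -0.28 against 0.02 over all genes, with 8 of 10 negative, and 1 gene had an unadjusted p under 0.05, against 10.3%. Groups of arrays did not overlap for 2 of the 10 genes for genotype on normal diet, 4 on high-fat diet, 5 for diet in WT and 1 for diet in αERKO, where 15.8%, 22.5%, 14.3% and 16.7% of all genes did not. The Cish arrays on high-fat diet counted as not overlapping by 398.3 against 398.5. At the level of probe sets, 0, 1, 0 and 1 of the 22 were called, both times Igfbp2, against 0.756%, 1.38%, 0.0278% and 0.199% of all probe sets.

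**Figure D4:**
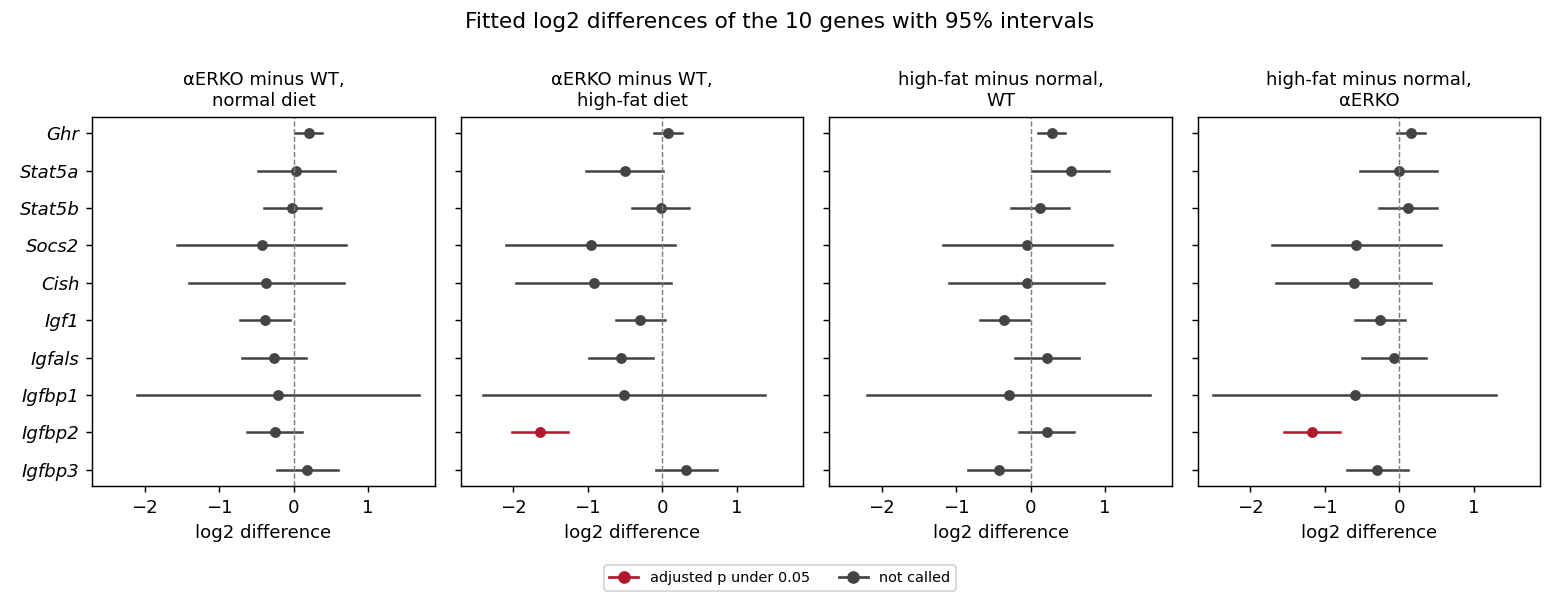
Fitted log2 differences of the 10 genes (brightest probe set) with 95% intervals in the 4 comparisons between groups, red where the adjusted p is under 0.05. Igfbp2 is called for genotype on high-fat diet (-1.64) and for diet in αERKO (-1.17), and the intervals of Socs2, Cish and Igfbp1 are the widest.

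The wider pathway was read from lists of genes with known roles, drawn up with earlier results of these data known. Of 18 further genes of growth hormone receptor signalling, Grb2, an adaptor that links receptors to RAS, was called higher in αERKO on high-fat diet, and no other was called in any comparison. In the order used for the 10 genes (genotype on normal diet, on high-fat diet, diet in WT, diet in αERKO, interaction), 3, 4, 0, 4 and 2 of the 18 had an unadjusted p under 0.05. The shares over all genes were 12.1%, 15.2%, 8.28%, 10.3% and 5.94%. For genotype on high-fat diet 1.98% of all genes were called. Grb2 read 879, 819 and 959 in WT high-fat and 1574, 1213 and 1241 in αERKO high-fat, without overlap. The difference was 0.58 ± 0.13 (adjusted p = 0.0342). It missed the threshold in 13 of 26 alternatives, with adjusted p over the 26 from 0.0112 to 0.328. Those 13 include leaving out WT high-fat replicate 1 or 2, αERKO normal replicate 2, or αERKO high-fat replicate 1 or 2, with differences of 0.47 to 0.65, and taking the mean of its probe sets, which gave 0.31. Socs3, another inhibitor of JAK2, had the smallest p of the list on normal diet, at 1.46 ± 0.53 (adjusted p = 0.279), and it read 6014, 1116 and 3198 in αERKO normal against 2068, 656 and 741 in WT normal. For diet the smallest p belonged to Akt2, a kinase of the insulin pathway, in WT (0.32, adjusted p = 0.652) and to Grb2 in αERKO (0.39, adjusted p = 0.269).

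Of 9 other IGF ligands, receptors and carriers kept, none was called by limma in the 5 comparisons. Of the 45 differences 1, that of Htra1, had an unadjusted p under 0.05. In the same order, 12.1%, 15.2%, 8.28%, 10.3% and 5.94% of all genes had such a p. The shares of all genes called were 1.22%, 1.98%, 0.0734%, 0.481% and 0% in the 5 comparisons. The smallest p in each belonged to Igfbp5 for genotype on normal diet (-0.32, adjusted p = 0.661), Insr, the insulin receptor, for genotype on high-fat diet (-0.25, adjusted p = 0.464), Igfbp7 for diet in WT (0.23, adjusted p = 0.707), Htra1, a secreted protease, for diet in αERKO (1.15 ± 0.44, adjusted p = 0.349) and Igf1r, the IGF1 receptor, for the interaction (-0.48, adjusted p = 0.872). Genotype differences were negative in 8 of 9 genes for normal diet and 7 of 9 for high-fat diet, with medians of -0.15 and -0.20 against -0.05 and -0.03 over all genes. After arrays were centred on their medians, 5 of 9 and 6 of 9 were negative. The medians were then -0.01 and -0.10, against 0.09 and 0.07 over all genes. With quantile normalization 6 of 9 and 7 of 9 were negative. The medians were then -0.19 and -0.23, against -0.01 and 0.01 over all genes.

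Among 9 genes known to respond to growth hormone or STAT5 in liver, Cux2 and Vldlr were lower in αERKO on both diets and the other 7 were not called. In the same order, 2, 5, 2, 2 and 3 of the 9 had an unadjusted p under 0.05, against 12.1%, 15.2%, 8.28%, 10.3% and 5.94% of all genes. Calls for genotype were made for 1.22% of all genes on normal diet and 1.98% on high-fat diet. Genotype differences were positive in 3 of 9 genes for normal diet and 5 of 9 for high-fat diet. Their medians were -0.04 and 0.47, against -0.05 and -0.03 over all genes. With arrays centred on their medians 5 of 9 were positive on each diet, with medians of 0.10 and 0.57. Quantile normalization gave 3 of 9 and 5 of 9 positive. Cux2, a repressor more abundant in female liver, read 838, 633 and 693 on normal diet in WT, against 19.6, 64.9 and 212 in αERKO on that diet. The difference was -3.08 ± 0.47 (adjusted p = 0.00338), and on high-fat diet it was -3.34 ± 0.47 (adjusted p = 0.00148). With the mean of the Cux2 probe sets these were -1.47 and -1.61, and on the log2(signal + 64) scale -2.44 and -2.65, all called. The size of the Cux2 difference is therefore uncertain. Vldlr, a lipoprotein receptor, gave -1.11 ± 0.16 (adjusted p = 0.00208) for normal diet, and for high-fat diet -1.06 ± 0.16 (adjusted p = 0.00266). With the mean of its probe sets the second was -0.74 (adjusted p = 0.112), and when just the compared groups entered the fit the first Cux2 difference had an adjusted p of 0.0504. Cd36, a fatty acid transporter, had 4256, 2870 and 6042 in WT high-fat and 12041, 9960 and 6160 in αERKO high-fat (1.10 ± 0.28, adjusted p = 0.0611). It had the smallest p of these genes for diet in WT (-0.73 ± 0.28, adjusted p = 0.483), and Lifr, a cytokine receptor, had it for diet in αERKO (-0.40, adjusted p = 0.391).

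A list of 10 genes held Foxo1 and Foxo3 themselves and genes that insulin suppresses through FOXO1, as it does Igfbp1. None was called by limma in the 5 comparisons, where 1.22%, 1.98%, 0.0734%, 0.481% and 0% of all genes were called. An unadjusted p under 0.05 was found for 3 genes for genotype on normal diet and 2 on high-fat diet. For diet it was found for 0 in WT and 3 in αERKO, and for the interaction for 1. Over all genes these shares were 12.1%, 15.2%, 8.28%, 10.3% and 5.94%. G6pc, the last enzyme of glucose release, came closest for genotype on normal diet, at -0.93 ± 0.23 (adjusted p = 0.0855), with WT signals of 11196, 13317 and 11800 there against αERKO signals of 4542, 7898 and 7057. On high-fat diet 9 of the 10 were negative with a median of -0.17 against -0.03 over all genes. With arrays centred on their medians 6 of 10 were negative, with a median of -0.07 against 0.07 over all genes. With quantile normalization 8 of 10 were negative, with a median of -0.15 against 0.01. The smallest p for genotype on high-fat diet was that of Ppargc1a, a coactivator of gluconeogenic genes, at -0.71 ± 0.22 (adjusted p = 0.127). For diet in αERKO the smallest p was that of Pck1, which encodes the first committed enzyme of gluconeogenesis, at -0.43 ± 0.13 (adjusted p = 0.209). Klf15 had the smallest p for diet in WT (-0.44, adjusted p = 0.705), and Foxo1 itself for the interaction (-0.66 ± 0.23, adjusted p = 0.786).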

How the data were processed

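Female mouse liver was measured on 12 one-colour 3′ expression arrays. What the authors deposited is an unlogged intensity for every probe set on every array, the MAS5 signal. Affymetrix Expression Console and MAS5 were used, per the submitters' processing notes, and their versions and the genome build are not given in the sources used here. These deposited intensities had a mean of 500 on each array after trimming 2% at each end, so arrays were already scaled, and dim signals scatter widely on a log scale. Array medians were 75.6 to 114, 0 pairs of arrays were identical, and within-group correlations were 0.939 to 0.963. The number of arrays limits the precision.

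Of 45101 probe sets, 34958 had 1 gene symbol in the platform annotation and entered, 932 had several and 9211 were not listed. The brightest probe set per gene was kept where it exceeded the array median on at least 3 arrays, which left 12264 genes, and all probe sets were filtered alike, which left 21558. Values were log2(signal + 16), which understates differences of dim probe sets. A mean per group was fitted over all 12 arrays with limma 3.58.1 in R 4.3.3 (8 residual degrees of freedom, intensity trend, two-sided, Benjamini-Hochberg over all genes or probe sets). The code was tested on simulated data. Groups came from the genotype and diet labels.

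Named were all members, from each pathway list the genes called or else that with the smallest p in a comparison, the 3 genes most correlated with a called member, and Esr1. The Cd36 value on high-fat diet was picked after it was seen. Members and lists were chosen with earlier results of these data known. Promoter windows were RefSeq's (GRCm38.p6), and 9 of 10 members matched.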

Additional observations from a re-analysis of the deposited data

Results flagged for a closer look

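The Igfbp2 diet differences of the 2 genotypes had opposite signs. Each WT high-fat array lay 0.14 to 0.29 above the mean of WT normal on the log2 scale, and each αERKO high-fat array differed from the mean of αERKO normal by -1.30 to -1.05. The positive sign in WT rests on WT normal replicate 2, the lowest WT array and one with pancreatic transcripts. The WT normal arrays at 14751 and 13086 lay within or just below the WT high-fat range of 13332 to 14837, the WT difference of 0.21 did not pass (adjusted p = 0.798), and it was 0.01 without that array, so a change in WT is not shown. The difference of the diet responses was -1.38 on the log2 scale. It was tested as the interaction and did not pass (limma adjusted p = 0.203).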

How the results depend on the processing

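Over 26 alternatives, 1290 values of the 10 genes were compared with those reported. In 1202 the direction and the side of the threshold held, 83 changed sign with neither value called, 3 were called in the alternative alone, 2 lost their call and 0 reversed while called. Igfbp2 on high-fat diet was called in all 26, at -1.86 to -1.54 (adjusted p 1.36e-05 to 0.00339). Its diet difference in αERKO ranged from -1.42 to -1.05 (adjusted p 0.00116 to 0.0728), and its interaction from -1.63 to -1.18 (adjusted p 0.0213 to 0.599).

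Counts of called genes changed as follows. Without the 4 arrays with pancreatic transcripts, 2 genes and 2 probe sets were called for genotype on normal diet in place of 0. Without the intensity trend, 0 genes and 0 probe sets were called for diet in αERKO in place of 1. With pancreatic and muscle scores as covariates, 1 gene and 1 probe set were called for the interaction in place of 0. For genotype on high-fat diet, 2 probe sets in place of 1 were called with array quality weights and, in an alternative chosen after seeing the data, without the 2 arrays with the highest muscle scores. Leaving out 1 array at a time gave 0 to 1 genes and 0 to 1 probe sets for diet in αERKO, and 1 to 2 probe sets for genotype on high-fat diet. The count of genes for diet in αERKO was 0 without αERKO normal replicate 3, and that of probe sets was 0 without αERKO normal replicate 2, αERKO normal replicate 3 or αERKO high-fat replicate 1. It was 2 for genotype on high-fat diet without αERKO high-fat replicate 2. The cause was not tested. A fit to only the groups compared gives no interaction. Over all genes the alternatives called 71 to 152 in place of 150 for genotype on normal diet, 60 to 944 in place of 243 on high-fat diet, 0 to 24 in place of 9 for diet in WT, 12 to 187 in place of 59 for diet in αERKO, and 0 to 2 in place of 0 for the interaction.

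No pairing by replicate number was seen: over 18 same-numbered pairs the correlation of deviations ran from -0.30 to 0.21, and 4 exceeded 0.1. Differently numbered arrays that both held pancreatic transcripts reached 0.28, so low same-number values do not exclude a pairing. With the replicate block 0, 1, 0, 1 and 0 genes were called in the 5 comparisons, as without it, and Igfbp2 had adjusted p of 0.000602 on high-fat diet and 0.0214 for diet in αERKO. Centring arrays on their medians shifted the median of all genes by 0.14 for genotype on normal diet and 0.10 on high-fat diet, and the share of calls that were higher went from 48.0% to 59.6% and from 55.6% to 62.9%. Dim probe sets of Socs2 and Stat5a, near array medians of 75.6 to 114, have uncertain folds. The same holds for Cux2, which was dim on some αERKO arrays.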
